A study of Homo sapiens with 60 samples.

Results

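The genes described here are 35 human genes of autophagy and the lysosome, chosen by symbol out of the 60675 genes of the table and followed across the vehicle and every herbal extract and dose. Autophagy is the process by which a cell wraps part of its own contents in a double membrane, the autophagosome, and delivers it to the lysosome, an acidic organelle that breaks it down. ULK1 and the lipid kinase complex around BECN1 start the membrane, ATG9A, ATG2A and WIPI1 let it grow, and ATG5, ATG7 and ATG16L1 attach the small ATG8 proteins, MAP1LC3B and the GABARAP family, which hold the cargo receptors SQSTM1 and NBR1. The lysosome's hydrolases, membrane proteins and proton pump, the V-ATPase, are encoded by genes that the transcription factors TFEB and TFE3 are known to switch on through DNA sites with the core CACGTG, and colon carcinoma cells use the pathway to recycle nutrients and to clear damaged proteins.

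The cells were HT29, an established human colorectal adenocarcinoma line, treated for 24 h with a water extract or with the vehicle dimethyl sulfoxide (DMSO), and mRNA was sequenced from total RNA. Extracts of the single herbs Cinnamomi Cortex, Astragali Radix, Cnidii Rhizoma and Rehmanniae Radix Preparata and of the herbal formulae Sagunja-tang and Samul-tang were each given at 20, 100 and 500 µg/mL, with 3 libraries per dose, and the vehicle had 3 libraries. For Paeoniae Radix a single library per dose was analysed, and it was left untested. The labels give nominal doses, while the series' design text states that extracts whose 20% inhibitory concentration fell short of 500 µg/mL were given at it and at dilutions of it. DMSO is 0.1% in the vehicle labels and 2% in the design text, which could not be settled. Whether the replicates came from separate cultures is not in the labels, and the spread on which every p-value rests may thus be technical.

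The 60 libraries held 20459346 to 36253747 counts each. The summed level of 11 colon epithelial markers was 11200 to 14200 CPM (counts scaled to the library total) per library, although CDX1 was low at 0.478 to 1.35 CPM. Fibroblast markers summed to 1.47 to 2.78 CPM, PTPRC of leukocytes reached at most 0.106 CPM and ALB of hepatocytes at most 0.0465 CPM, while LYZ (1240 to 1720 CPM) and SERPINA1 (321 to 511 CPM), which are listed as leukocyte and hepatocyte markers, were well expressed. The first principal component, 15.7% of the variance, separated libraries in a way that the groups explain only in part. It followed the extract for most, but set apart replicates of the same dose in Cinnamomi Cortex and Astragali Radix. Earlier results of these data were used to divide the libraries along it. What is called the first library set holds 27 libraries (all those of Rehmanniae Radix Preparata, Cnidii Rhizoma and the vehicle, with the first replicates of Astragali Radix and Cinnamomi Cortex), at -29.48 to -5.39 on that component. The second set holds 30 (both formulae and the remaining replicates of those extracts), at -15.99 to 25.41, where the lowest, Cinnamomi Cortex 500 µg/mL replicate 2, fell among the first set. The labels state no such division. In the sample codes of Cinnamomi Cortex and Astragali Radix the first number is the same and the next number gives the replicate. Each replicate thus has its own code prefix, which the 2 extracts share. The codes separate the sets only as replicates, so the sets are a grouping made from the data along whole replicates, not a recorded batch. The formulae share no library set with the vehicle.

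Of the 35 genes, 34 passed the filter on low counts, which kept 16356 genes. The exception was RRAGD, a GTPase that links amino acid supply to the kinase complex mTORC1, with at most 0.078 CPM in any of the 57 tested libraries. Each was tested with edgeR's quasi-likelihood test, adjusted over all 16356 genes by the Benjamini-Hochberg method, and a gene is called higher or lower at an adjusted p under 0.05. Changes are given as log2 ratios, with the standard error as SE.

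Promoters are shown for the 6 genes whose promoter held the CACGTG core, through which TFEB and TFE3 are known to act. RefSeq's promoter table (GRCh38.p14, 250 bases before to 50 after each start site) held 27 of the 35 genes. The core, which reads the same on both strands, occurred in 6 of these 27 genes and in 8.77% of the 27305 genes of the table. The members were chosen from a pathway already known to carry this core. A higher share among them was therefore likely in advance, and it was not tested. Each line gives 80 bases around a match, with the core or the longer TCACGTGA that contains it in capitals.
NEU1 (chr6:31862905-31862984, minus strand): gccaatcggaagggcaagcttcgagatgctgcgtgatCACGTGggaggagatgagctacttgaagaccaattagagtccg
CTSD (chr11:1763932-1764011, minus strand): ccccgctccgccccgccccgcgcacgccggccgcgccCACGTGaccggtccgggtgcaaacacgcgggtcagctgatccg
CTSA (chr20:45891273-45891352, plus strand): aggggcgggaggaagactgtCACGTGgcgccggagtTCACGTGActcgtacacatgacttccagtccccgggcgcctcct
MCOLN1 (chr19:7522573-7522652, plus strand): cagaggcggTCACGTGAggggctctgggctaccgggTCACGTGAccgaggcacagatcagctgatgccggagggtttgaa
LAMP1 (chr13:113297174-113297253, plus strand): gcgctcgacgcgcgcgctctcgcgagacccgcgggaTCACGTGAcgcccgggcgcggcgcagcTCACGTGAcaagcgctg
ATP6V0D1 (chr16:67481174-67481253, minus strand): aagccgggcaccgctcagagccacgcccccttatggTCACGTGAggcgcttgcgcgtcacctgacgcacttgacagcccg
The 8-base form TCACGTGA was found in MCOLN1, CTSA, LAMP1 and ATP6V0D1 and in 1.18% of all genes. LAMP1 held 6 cores in its 300 bases, and MCOLN1 and CTSA held 2 each. Of the 12 genes called higher with Cinnamomi Cortex at 500 µg/mL, 5 have the core (NEU1, CTSD, CTSA, MCOLN1 and LAMP1), and of the other 15 genes with an entry, 1 does (ATP6V0D1). This count rests partly on calls that 1 library removes: 2 of 6 higher genes (NEU1 and CTSD) have the core without vehicle replicate 3. It is 3 of 8 without vehicle replicate 1, 3 of 9 without vehicle replicate 2 and 3 of 8 without Cinnamomi Cortex replicate 3. Without Cinnamomi Cortex replicate 1 it is 4 of 9, and without its replicate 2 also 4 of 9. Between 500 and 20 µg/mL of the extract, 2 of the 6 higher genes have it, again NEU1 and CTSD. The pattern TGACNNNGC, the core of the antioxidant response element, was found on either strand in 8 of the 27 genes and in 16.1% of all genes. These matches describe the letters of the windows and no binding was measured.

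Expression of the 34 genes in vehicle cells, as CPM per kb of transcript, spanned cathepsin D (CTSD), an aspartic protease of the lysosome, at 323 ± 9.95 down to cathepsin L (CTSL), a cysteine protease, at 1.77 ± 0.0932 (SD, n = 3). CTSZ, a carboxypeptidase, came second at 197 ± 10.8. LAMP1, the main glycoprotein of the lysosomal membrane, at 130 ± 3.31, and SQSTM1, at 127 ± 12.7, overlapped in their libraries. CTSA, a serine carboxypeptidase that also stabilises the sialidase NEU1, stood at 97.7 ± 1.22, and GABARAP at 65.0 ± 3.61. Genes of the early steps were lower than these highest genes, with BECN1 at 28.2 ± 0.623, ATG9A at 24.4 ± 0.603, ATG5 at 12.7 ± 0.655, ULK1 at 4.38 ± 0.166 and WIPI1 at 2.74 ± 0.382. They were not below lysosomal genes in general. BECN1 and ATG9A stood above LAMP2 at 22.5 ± 0.607, CTSB at 19.7 ± 0.312 and MCOLN1 at 3.92 ± 0.18. TFE3 at 19.9 ± 0.361 stood above its relative TFEB at 5.53 ± 0.192. The ranks between ATG9A and LAMP2, and between TFEB and ULK1, joined neighbours whose vehicle libraries overlapped.

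**Figure D1:**
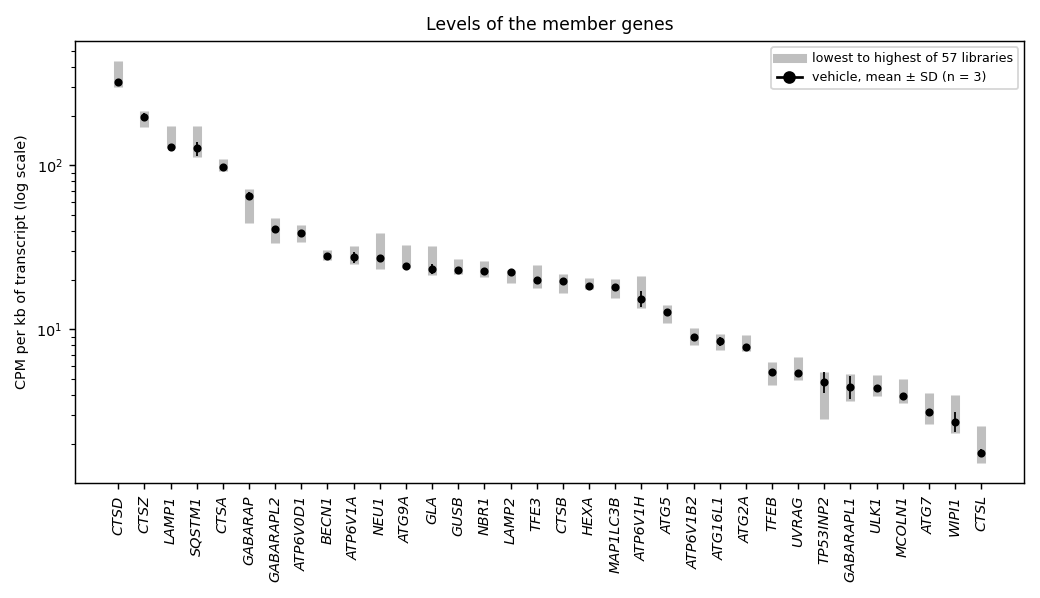
Level of each of the 34 tested genes in CPM per kb of transcript on a log axis, ordered by the vehicle mean. Points and bars give the vehicle mean ± SD (n = 3) and grey bars the lowest to the highest of the 57 tested libraries. CTSD, CTSZ, LAMP1 and SQSTM1 lie at the top and CTSL at the bottom, and most grey bars are short beside the differences between genes.

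Cinnamomi Cortex at 500 µg/mL had the most called members of any extract and dose. Of the 34, 12 were higher and 1 was lower than in vehicle cells, against 6.09% of all genes tested called higher and 6.62% called lower. The members were chosen with earlier results of these data known. Counts of members set beside shares of all genes, here and below, are therefore a description and were not tested. Of 178 further autophagy and lysosome genes, 8.43% were called higher and 5.62% lower in the same comparison. The median log2 fold change of the 34 genes was 0.11, that of all genes 0.00. The genes that rose came from several parts of the pathway, with none among the conjugation and V-ATPase genes. They were the cargo receptor SQSTM1, the ATG8 gene MAP1LC3B, ATG9A and WIPI1 of membrane growth, and the transcription factor TFE3. At the lysosome they were the membrane genes LAMP1 and MCOLN1, the proteases CTSD, CTSL and CTSA, and the glycosidases NEU1 and GLA. The one that fell was the cysteine protease CTSB. In these bulk cultures, a difference in the share of cells in some state cannot be told apart from a difference in the RNA of each cell.

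**Figure D2:**
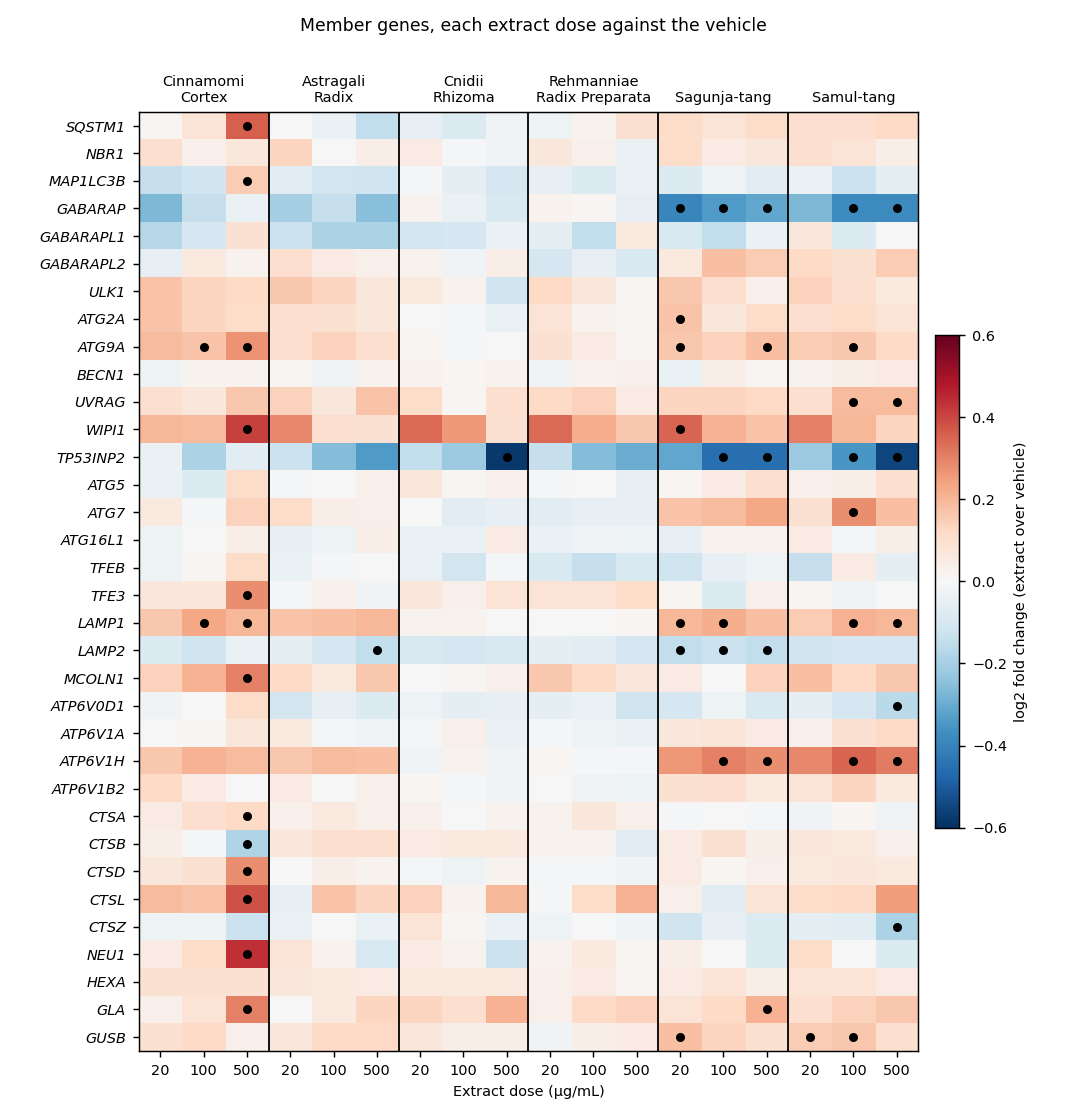
Log2 fold change of the 34 tested genes, in rows, for each extract and dose over the vehicle, in columns, with red for higher and blue for lower. Dots mark genes called by edgeR's quasi-likelihood test at an adjusted p under 0.05. The column of Cinnamomi Cortex at 500 µg/mL has 13 dots, and the 18 comparisons share the same 3 vehicle libraries.

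NEU1 (ENSG00000204386, chromosome 6, 31857659 to 31862906), the sialidase that removes sialic acid from glycoproteins in the lysosome, had 75.0, 72.8 and 78.7 CPM with Cinnamomi Cortex at 500 µg/mL, against 56.2, 57.2 and 53.5 CPM in vehicle libraries. Every treated library lay above every vehicle library. NEU1 rose by 0.44 (SE 0.05, adjusted p = 1.5e-09), 1.36-fold, the largest change among the members called here. SQSTM1 (ENSG00000161011, chromosome 5, 179806398 to 179838078), the receptor p62 that carries ubiquitinated cargo, had 488, 447 and 523 CPM at that dose, against 403, 399 and 336 CPM in the vehicle. The groups did not overlap, although vehicle replicate 3 lay well below the other two. SQSTM1 rose by 0.36 (SE 0.06, adjusted p = 3.1e-05), 1.28-fold.

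CTSD (ENSG00000117984, chromosome 11, 1752752 to 1764573) had 791, 790 and 922 CPM with 500 µg/mL, against 678, 708 and 667 CPM in the vehicle, again without overlap. TFE3 (chromosome X, 49028726 to 49043486) had 84.7, 80.6 and 82.9 CPM, against 66.8, 68.2 and 69.3 CPM in the vehicle. GLA (chromosome X, 101397803 to 101408012), the alpha-galactosidase that clears globotriaosylceramide, had 37.4, 35 and 42.4 CPM, against 31.5, 32.7 and 28.4 CPM in the vehicle. All 3 genes were separated from the vehicle, with replicate 3 the highest of the treated libraries for CTSD and GLA. Their changes were 0.28 for CTSD (SE 0.05, adjusted p = 9.6e-06), 0.28 for TFE3 (SE 0.05, adjusted p = 3.4e-05) and 0.30 for GLA (SE 0.07, adjusted p = 0.00082). TFEB, the other transcription factor, changed by 0.11 and was not called (adjusted p = 0.38), and the difference between the changes of TFE3 and TFEB was not tested.

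ATG9A (chromosome 2, 219219380 to 219229717), a scramblase whose vesicles seed the autophagosome, had 111, 112 and 132 CPM with 500 µg/mL, against 96.5, 101 and 97.2 CPM in the vehicle, and rose by 0.27 (SE 0.05, adjusted p = 0.00018). WIPI1 (chromosome 17, 68420948 to 68457513), which reads the lipid made by the BECN1 complex, had 6.22, 7.2 and 6.68 CPM against 5.64, 5.18 and 4.26 CPM in the vehicle. Both genes were above the vehicle in every treated library. WIPI1 rose by 0.41 (SE 0.11, adjusted p = 0.0091). MAP1LC3B (ENSG00000140941, chromosome 16, 87383995 to 87404779), the ATG8 gene behind the LC3 assay of autophagosomes, had 53.7, 54.3 and 54.6 CPM, against 48.4, 51.1 and 46.4 CPM in the vehicle, and rose by 0.15 (SE 0.05, adjusted p = 0.038). Among the other early genes, ULK1, ATG2A, BECN1, UVRAG and TP53INP2 and the conjugation genes ATG5, ATG7 and ATG16L1 had changes of -0.07 to 0.16 and none was called. The receptor NBR1 (0.07) and the ATG8 genes GABARAPL1 (0.09), GABARAPL2 (0.02) and GABARAP (-0.04) were not called either.

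At the lysosome, MCOLN1, a calcium channel of the lysosomal membrane, had 10.4, 9.85 and 10.0 CPM, against 8.33, 8.41 and 7.72 CPM in the vehicle (0.30, SE 0.09, adjusted p = 0.017). CTSL had 5.08, 4.76 and 5.23 CPM, against 3.97, 3.95 and 3.61 CPM (0.38, SE 0.12, adjusted p = 0.032). Neither overlapped the vehicle. LAMP1 had 372, 376 and 468 CPM, against 355, 342 and 359 CPM in the vehicle, with treated replicate 3 well above the other treated libraries. It rose by 0.20 (SE 0.07, adjusted p = 0.048) and CTSA by 0.12 (SE 0.04, adjusted p = 0.041). CTSB (ENSG00000164733, chromosome 8, 11842524 to 11869448) went the other way, with 64.2, 69.6 and 67.6 CPM against 75.8, 77.6 and 75.3 CPM in the vehicle (-0.18, SE 0.04, adjusted p = 0.0017). The 4 V-ATPase genes ATP6V0D1, ATP6V1A, ATP6V1H and ATP6V1B2 had changes of 0.00 to 0.19 with none called. The glycosidase genes HEXA (0.09) and GUSB (0.03), LAMP2 (-0.04) and CTSZ (-0.13, adjusted p = 0.066) were not called either.

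Of the 34 genes, 16 had all 3 Cinnamomi Cortex libraries above all 3 vehicle libraries and 2 had them below, against 12.8% and 13.5% of all genes tested. With each of these 6 libraries left out in turn, the calls for NEU1, SQSTM1, GLA, TFE3, CTSD, ATG9A and CTSB held in every fit and the other 6 were lost at least once, leaving 7 without vehicle replicate 3. Without that library, WIPI1 stood at 0.31 (adjusted p = 0.095), MCOLN1 at 0.27 (adjusted p = 0.081), CTSL at 0.34 (adjusted p = 0.12) and MAP1LC3B at 0.12 (adjusted p = 0.19). LAMP1 stood at 0.09 (adjusted p = 0.55) and CTSA at 0.10 (adjusted p = 0.21) without Cinnamomi Cortex replicate 3, and both calls were lost without any 1 of the vehicle libraries. Leaving out treated replicate 1 also ended the calls for CTSL, MAP1LC3B and MCOLN1, replicate 2, the library that lay apart from its set, those for CTSA, MAP1LC3B and WIPI1, and replicate 3 those for CTSL and MAP1LC3B. The calls for CTSL and MAP1LC3B were also lost without vehicle replicate 1, and that for CTSL without vehicle replicate 2. A term for the library set ended those for LAMP1 (0.09, adjusted p = 0.41), CTSA (0.10, adjusted p = 0.12) and WIPI1 (0.28, adjusted p = 0.10), and 10 remained. The share of counts from mitochondrial mRNAs was 9.14 ± 1.81% with Cinnamomi Cortex at 500 µg/mL and 10.0 ± 1.36% in the vehicle (SD, n = 3 each).

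Fewer members were called at the lower doses. At 100 µg/mL, 2 of the 34 genes were called, ATG9A (0.17, adjusted p = 0.034) and LAMP1 (0.23, adjusted p = 0.039), both higher, against 7.84% of all genes called in either direction, and neither call held with a term for the library set. Both calls were also lost without vehicle replicate 1, 2 or 3 or Cinnamomi Cortex replicate 2 or 3, ATG9A then running from 0.16 upward and LAMP1 from 0.17 upward. At 20 µg/mL edgeR called 0 members, against 1.69% of all genes, 8 reached an unadjusted p under 0.05, and DESeq2 called 1 (ATG9A). NEU1 had 56.2, 57.2 and 53.5 CPM in the vehicle, 56.0, 61.4 and 54.9 CPM at 20 µg/mL, 64.7, 57.9 and 57.8 CPM at 100 µg/mL and 75.0, 72.8 and 78.7 CPM at 500 µg/mL. SQSTM1 had 403, 399 and 336 CPM in the vehicle, 381, 386 and 380 CPM at 20 µg/mL, 401, 396 and 405 CPM at 100 µg/mL and 488, 447 and 523 CPM at 500 µg/mL. For both genes the lower doses overlapped the vehicle or lay just above it, and the 500 µg/mL libraries lay above all others. MAP1LC3B was not monotonic, with 48.4, 51.1 and 46.4 CPM in the vehicle, 45.7, 42.0 and 44.7 CPM at 20 µg/mL, 47.2, 43.5 and 43.5 CPM at 100 µg/mL and 53.7, 54.3 and 54.6 CPM at 500 µg/mL.

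**Figure D3:**
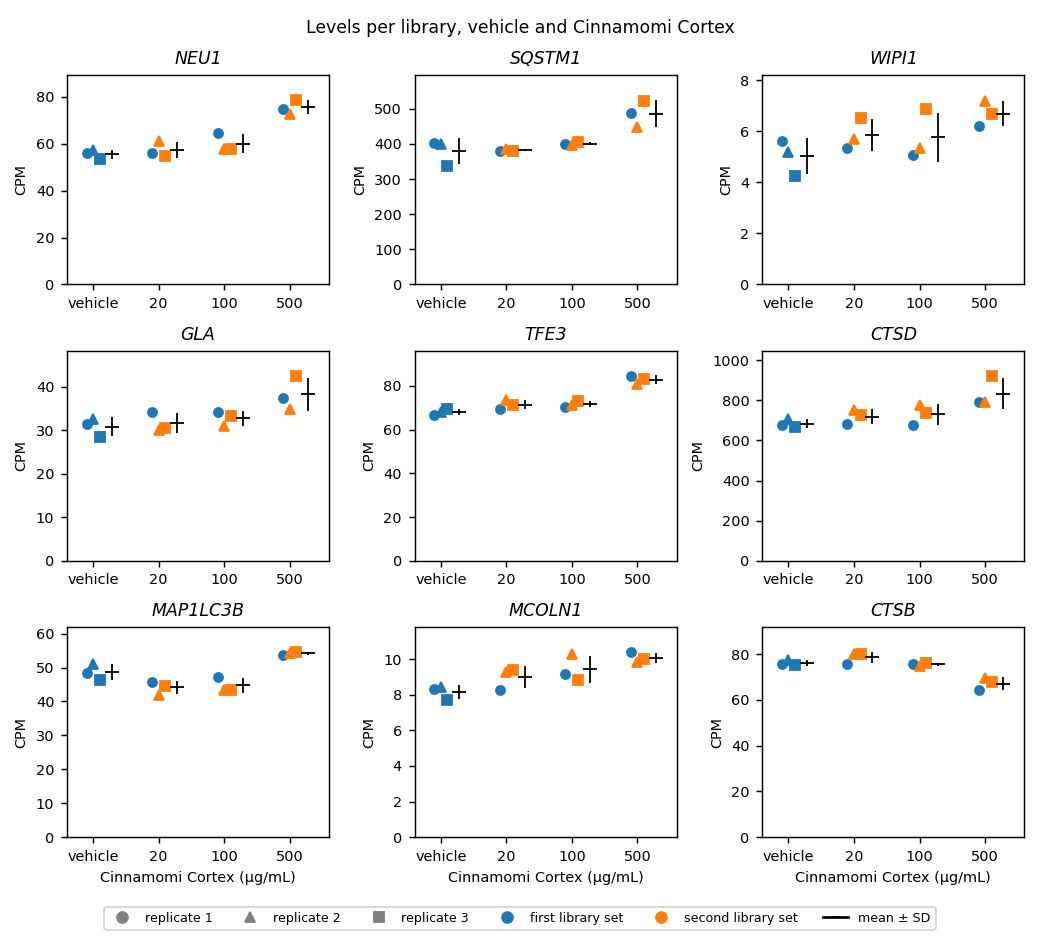
CPM of 9 genes in each vehicle and Cinnamomi Cortex library by dose, with marker shape for the replicate, colour for the library set and bars for the mean ± SD (n = 3). NEU1, SQSTM1, GLA, TFE3, CTSD and MAP1LC3B lie highest at 500 µg/mL and CTSB lies lowest there, in both library sets.

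Comparing 500 with 20 µg/mL within the extract leaves out the vehicle and has the same replicates of each library set at both doses, apart from replicate 2 at 500 µg/mL, which lay with the first set. It uses the same 3 libraries at 500 µg/mL. There, 6 members were higher and 1 was lower, against 4.51% and 5.58% of all genes, with a median of 0.07 for the 34 genes and -0.00 for all genes. NEU1 rose by 0.39 (SE 0.05, adjusted p = 2.9e-08), SQSTM1 by 0.35 (SE 0.06, adjusted p = 6.4e-05) and MAP1LC3B by 0.30 (SE 0.05, adjusted p = 4.4e-05). GLA had 37.4, 35 and 42.4 CPM at 500 µg/mL against 34.2, 30 and 30.6 CPM at 20 µg/mL, and rose by 0.27 (SE 0.06, adjusted p = 0.0032). Without replicate 3 at 500 µg/mL, GLA stood at 0.19 (adjusted p = 0.056), and the other 6 calls held with any 1 of the 6 libraries left out. TFE3, with 84.7, 80.6 and 82.9 CPM against 69.3, 73.4 and 71.3 CPM at 20 µg/mL, rose by 0.21 (SE 0.05, adjusted p = 0.002). CTSD, with 791, 790 and 922 CPM against 680, 753 and 725 CPM, also rose by 0.21 (SE 0.05, adjusted p = 0.001). CTSB fell, with 64.2, 69.6 and 67.6 CPM against 75.7, 80.2 and 79.9 CPM at 20 µg/mL (-0.23, SE 0.04, adjusted p = 0.00011). None of these 7 overlapped between doses, and over the 34 genes 12 lay above and 3 below without overlap, against 10.8% and 11.6% of all genes.

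Of the 4 ATG8 genes, MAP1LC3B alone was called between the doses. Among the other 3, GABARAPL1 changed by 0.26 (adjusted p = 0.066), GABARAP by 0.23 (adjusted p = 0.12) and GABARAPL2 by 0.07 (adjusted p = 0.62) between 500 and 20 µg/mL, and whether these changes differ from that of MAP1LC3B was not tested. LAMP1 and WIPI1, both called against the vehicle, changed by 0.04 (adjusted p = 0.78) and 0.21 (adjusted p = 0.25) between the doses. ATG9A changed by 0.09 (adjusted p = 0.33).

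**Figure D4:**
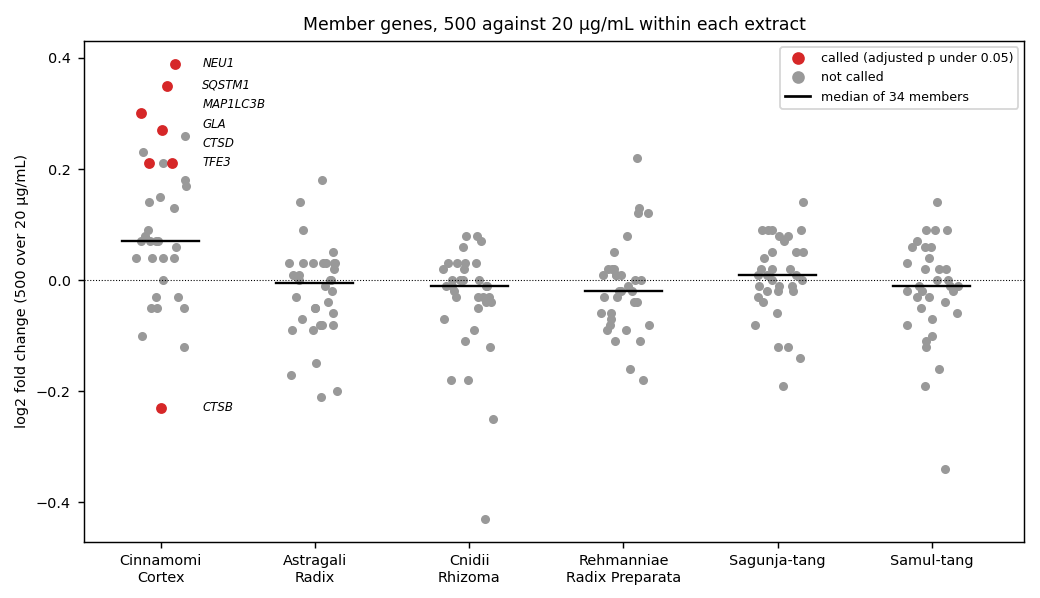
Log2 fold change of each of the 34 genes between 500 and 20 µg/mL, 1 column of points per extract, red where called at an adjusted p under 0.05, with the median as a line. In Cinnamomi Cortex NEU1 (0.39), SQSTM1 (0.35), MAP1LC3B (0.30), GLA (0.27), TFE3 (0.21) and CTSD (0.21) are called higher and CTSB (-0.23) lower, and the other 5 columns hold no red point.

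Astragali Radix has the same replicates in each library set as Cinnamomi Cortex, so the 2 extracts were compared at 500 µg/mL. Replicate 2 is not balanced there: that of Cinnamomi Cortex lay among the first set, at -15.99 on the first principal component. That of Astragali Radix lay at 7.98. With Cinnamomi Cortex, 9 members were higher and 1 was lower than with Astragali Radix, against 4.9% and 5.8% of all genes, and the median was 0.10 for the 34 genes and -0.01 for all. NEU1 had 75.0, 72.8 and 78.7 CPM with Cinnamomi Cortex, against 51.9, 52.7 and 52.4 CPM with Astragali Radix (0.53, SE 0.05, adjusted p = 6.9e-12). SQSTM1 had 488, 447 and 523 CPM, against 354, 336 and 335 CPM with Astragali Radix (0.51, SE 0.06, adjusted p = 1.8e-08). TFE3 (0.30, adjusted p = 1.2e-05), MAP1LC3B (0.28, adjusted p = 9.4e-05) and CTSD (0.27, adjusted p = 2.8e-05) were also higher, and CTSB was lower (-0.28, adjusted p = 1.3e-06), with 64.2, 69.6 and 67.6 CPM against 80.3, 83.4 and 81.8 CPM. These 6 calls held with any 1 of the 6 libraries left out. Those for WIPI1 (0.32, adjusted p = 0.046), GABARAPL1 (0.28, adjusted p = 0.043), ATP6V0D1 (0.19, adjusted p = 0.014) and ATG9A (0.18, adjusted p = 0.02) were each lost without Cinnamomi Cortex replicate 3, ATG9A then standing at 0.09 (adjusted p = 0.27). At least 1 of the 4 was also lost without each of the other 5 libraries, GABARAPL1 standing at 0.20 (adjusted p = 0.27) without Cinnamomi Cortex replicate 1, WIPI1 at 0.26 (adjusted p = 0.22) without Cinnamomi Cortex replicate 2 and at 0.24 (adjusted p = 0.21) without Astragali Radix replicate 1, and ATP6V0D1 at 0.17 (adjusted p = 0.081) without Astragali Radix replicate 2 and at 0.16 (adjusted p = 0.10) without its replicate 3. In all, 14 members lay above and 1 below without overlap, against 11.1% and 12.3% of all genes.

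Whether the step from 20 to 500 µg/mL differed between these extracts was tested as an interaction, which holds the same unbalanced replicate 2. The difference was called for 3 members with the greater rise in Cinnamomi Cortex and 1 with the greater fall, against 1.11% and 1.44% of all genes, and the median difference was 0.11 for the 34 genes and 0.00 for all. NEU1 changed by 0.39 between the doses of Cinnamomi Cortex and by -0.17 between those of Astragali Radix (adjusted p = 0.41), and the difference was 0.56 (SE 0.07, adjusted p = 1.1e-07). SQSTM1 changed by 0.35 and by -0.15 (adjusted p = 0.83 in Astragali Radix), a difference of 0.49 (SE 0.09, adjusted p = 0.00017). For MAP1LC3B the difference was 0.35 (SE 0.07, adjusted p = 0.0021) and for CTSB -0.26 (SE 0.06, adjusted p = 0.0052), which stood at -0.20 (adjusted p = 0.055) without replicate 1 of Astragali Radix at 20 µg/mL. The differences for TFE3 (0.22, adjusted p = 0.086) and CTSD (0.19, adjusted p = 0.12) were not called.

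The other extracts had no edgeR call between the doses, although some changes were as large as those called in Cinnamomi Cortex. Between 500 and 20 µg/mL edgeR called 0 members in Astragali Radix, Cnidii Rhizoma, Rehmanniae Radix Preparata, Sagunja-tang and Samul-tang, where 0.0795%, 0.397%, 0.171%, 0.00611% and 0.141% of all genes were called in either direction. In the same order 4, 5, 2, 2 and 3 members reached an unadjusted p under 0.05, and DESeq2 called 1 member in Samul-tang (NEU1) and 0 in the other 4. Again in that order, 4, 6, 1, 3 and 6 of the 34 members lay wholly below at 500 µg/mL. The shares of all genes were 4.92%, 8.0%, 6.57%, 7.86% and 7.21%. Wholly above lay 2, 0, 1, 0 and 1 members, against 4.6%, 7.69%, 6.54%, 9.72% and 8.07% of all genes. NEU1, higher at the top dose of Cinnamomi Cortex, changed by -0.17, -0.18, -0.02, -0.12 and -0.19 in these 5 extracts, and TP53INP2 by -0.43 in Cnidii Rhizoma (adjusted p = 0.16) and by -0.34 in Samul-tang (adjusted p = 0.52).

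Between the 2 formulae at 500 µg/mL edgeR called 0 members (0.318% of all genes, 1 member at an unadjusted p under 0.05, 0 by DESeq2), and between Cnidii Rhizoma and Rehmanniae Radix Preparata it also called 0 (0.153% of all genes, 4 members unadjusted, 0 by DESeq2). For NEU1 the difference was -0.00 for Sagunja-tang over Samul-tang (interval -0.10 to 0.09) and -0.13 for Cnidii Rhizoma over Rehmanniae Radix Preparata (interval -0.23 to -0.04, adjusted p = 0.69). The interactions of dose in these pairs gave 0 called members too, with 0% and 0.0122% of all genes called, 1 member at an unadjusted p under 0.05 in each and 0 by DESeq2.

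Against the vehicle, Astragali Radix had 1 member called at 500 µg/mL, LAMP2 (-0.15, SE 0.04, adjusted p = 0.042), against 3.61% of all genes in either direction. LAMP2, the second large glycoprotein of the lysosomal membrane and a receptor for chaperone-mediated autophagy, had 81.7, 83.0 and 80.8 CPM, against 92.8, 90.8 and 88.0 CPM in the vehicle, and its call was lost without any 1 of these 6 libraries, the change then running from -0.17 to -0.13. At 100 and 20 µg/mL edgeR called 0 members, against 2.43% and 1.39% of all genes, with 9 and 6 reaching an unadjusted p under 0.05, where DESeq2 called 0. For Rehmanniae Radix Preparata at 500, 100 and 20 µg/mL edgeR called 0 members, against 0.593%, 0.202% and 0.44% of all genes. There, 5, 2 and 1 members had an unadjusted p under 0.05, and DESeq2 also called 0.

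With Cnidii Rhizoma 1 member was called lower at 500 µg/mL, TP53INP2, against 1.38% of all genes called in either direction. TP53INP2 (chromosome 20, 34704290 to 34713439) encodes a scaffold that leaves the nucleus on starvation and binds ATG8 proteins. It had 19.5, 23.1 and 17.6 CPM in the vehicle, 19.1, 16.9 and 18.4 CPM at 20 µg/mL, 20.8, 14.9 and 16.2 CPM at 100 µg/mL and 14.9, 13.6 and 11.9 CPM at 500 µg/mL. The top dose lay below every vehicle library and every library at 20 µg/mL, and its highest library equalled the lowest at 100 µg/mL. The change against the vehicle was -0.58 (SE 0.12, adjusted p = 0.0072), and it was -0.46 (adjusted p = 0.13) without vehicle replicate 2 and -0.50 (adjusted p = 0.097) without replicate 3 of the top dose. A fit on the vehicle, Cnidii Rhizoma and Rehmanniae Radix Preparata alone, all of the first library set, gave -0.58 (adjusted p = 0.016). At 100 and 20 µg/mL edgeR called 0 members, against 0.147% and 0.293% of all genes, with 2 and 3 reaching an unadjusted p under 0.05, where DESeq2 called 0.

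Sagunja-tang and Samul-tang had more called members against the vehicle than most other groups, but more of all genes were called there too. The counts, each out of 34 members, lay near the shares of all genes given in brackets below. The formulae and the vehicle lie in different library sets. Formula and set cannot be told apart in these comparisons except through the extracts that span both sets. Sagunja-tang had 3 members higher and 3 lower at 500 µg/mL (11.6% and 8.28% of all genes), 2 and 3 at 100 µg/mL (9.24% and 7.04%) and 5 and 2 at 20 µg/mL (9.43% and 8.63%). Samul-tang had 3 higher and 4 lower at 500 µg/mL (10.1% and 8.04%), 6 and 2 at 100 µg/mL (11.8% and 9.83%) and 1 and 1 at 20 µg/mL (5.58% and 4.9%). With a term for the library set, 1 of these 35 calls remained, GLA with Sagunja-tang at 500 µg/mL (0.27, adjusted p = 0.04), and it too was lost when replicate 2 of Cinnamomi Cortex at 500 µg/mL was placed in the first set (0.23, adjusted p = 0.09). With 1 library left out at a time, no call of Sagunja-tang at 500 µg/mL held in every fit, and of those of Samul-tang at 500 µg/mL only TP53INP2 did. The share of counts from mitochondrial mRNAs was 6.64 ± 0.383% with Sagunja-tang and 6.70 ± 0.771% with Samul-tang at 500 µg/mL and 10.0 ± 1.36% in the vehicle (SD, n = 3 each). Within Cinnamomi Cortex and Astragali Radix, second-set libraries lay below replicate 1 of the same dose, except for Cinnamomi Cortex replicate 2. That replicate had 10.27% against 10.095% at 500 µg/mL and 9.58% against 8.486% at 100 µg/mL. The part of this share in these calls was not tested.

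GABARAP, an ATG8 gene that acts late in autophagosome closure, was the most often called of these, lower in 5 of the 6 formula groups. It had 84.6, 88.8 and 83.4 CPM with Sagunja-tang and 73.8, 83.4 and 87.9 CPM with Samul-tang at 500 µg/mL, against 104, 102 and 113 CPM in the vehicle. No formula library reached the vehicle. The changes were -0.31 (SE 0.09, adjusted p = 0.017) with Sagunja-tang and -0.38 (SE 0.09, adjusted p = 0.0055) with Samul-tang, and they were -0.08 and -0.15 with a term for the library set. The call was lost for Sagunja-tang without vehicle replicate 3 (-0.27, adjusted p = 0.10) or Sagunja-tang replicate 3 (-0.29, adjusted p = 0.062), and for Samul-tang without its replicate 1 (-0.31, adjusted p = 0.052). It was lost in 2 of 6 such fits for Sagunja-tang at 100 µg/mL. For Sagunja-tang at 20 µg/mL and Samul-tang at 100 µg/mL it held in every such fit, though not with the set term.

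TP53INP2 had 15.4, 13.8 and 14.9 CPM with Sagunja-tang and 15.0, 14.3 and 11.9 CPM with Samul-tang at 500 µg/mL, against 19.5, 23.1 and 17.6 CPM in the vehicle. Its changes were -0.45 (SE 0.12, adjusted p = 0.0088), lost without vehicle replicate 2 (-0.34, adjusted p = 0.085), and -0.55 (SE 0.12, adjusted p = 0.0022), which held with any 1 library left out. With the set term they were -0.21 and -0.31 and not called. ATP6V1H, a regulatory subunit of the V-ATPase, had 37.0, 39.5 and 36.4 CPM with Sagunja-tang and 42.6, 39.3 and 33.9 CPM with Samul-tang, against 33.0, 32.9 and 27.1 CPM in the vehicle. It was called higher by 0.28 (SE 0.10, adjusted p = 0.043) and 0.31 (SE 0.10, adjusted p = 0.024), and stood at 0.06 and 0.09 with the set term. Without vehicle replicate 3, the lowest of the vehicle libraries, the changes were 0.19 (adjusted p = 0.25) and 0.23 (adjusted p = 0.18).

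Replicates 2 and 3 of Cinnamomi Cortex and Astragali Radix belong to the second set and replicate 1 to the first, so members can be set side by side within these extracts. Since the sets were made from these libraries' expression, the splits are a description and were not tested. GABARAP ran from 78.7 to 108 CPM, with a median of 89.0, in the 12 libraries of the second set, and from 96.0 to 113 CPM, with a median of 104, in the 6 of the first, and 11 of the 12 lay below all 6. ATP6V1H ran from 31.4 to 42.3 CPM (median 37.4) in the second set and from 29.7 to 34 CPM (median 31.8) in the first, with 11 of 12 above all 6. LAMP1 ran from 376 to 468 CPM (median 416) in the second set and from 352 to 384 CPM (median 372) in the first, again with 11 of 12 above. The exception for each of these genes was Cinnamomi Cortex 500 µg/mL replicate 2, at 108, 31.4 and 376 CPM. That library fell among the first set on the first principal component. The other members called often with the formulae split less cleanly. TP53INP2 ran from 14.0 to 19.2 CPM (median 17.1) in the second set and from 17.8 to 22.2 CPM (median 19.6) in the first, with 8 of 12 below all 6, and over all 57 libraries 0 of 30 lay below all 27. ATG9A had 7 of 12 above and LAMP2 had 4 of 12 below. Members called between the doses of Cinnamomi Cortex were split to varying degrees too: MAP1LC3B had 8 of 12 below and 2 above, GLA 7 below and 1 above, CTSB 5 above, TFE3 4 below, SQSTM1 2 below and 1 above, and NEU1 and CTSD 1 above each.

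**Figure D5:**
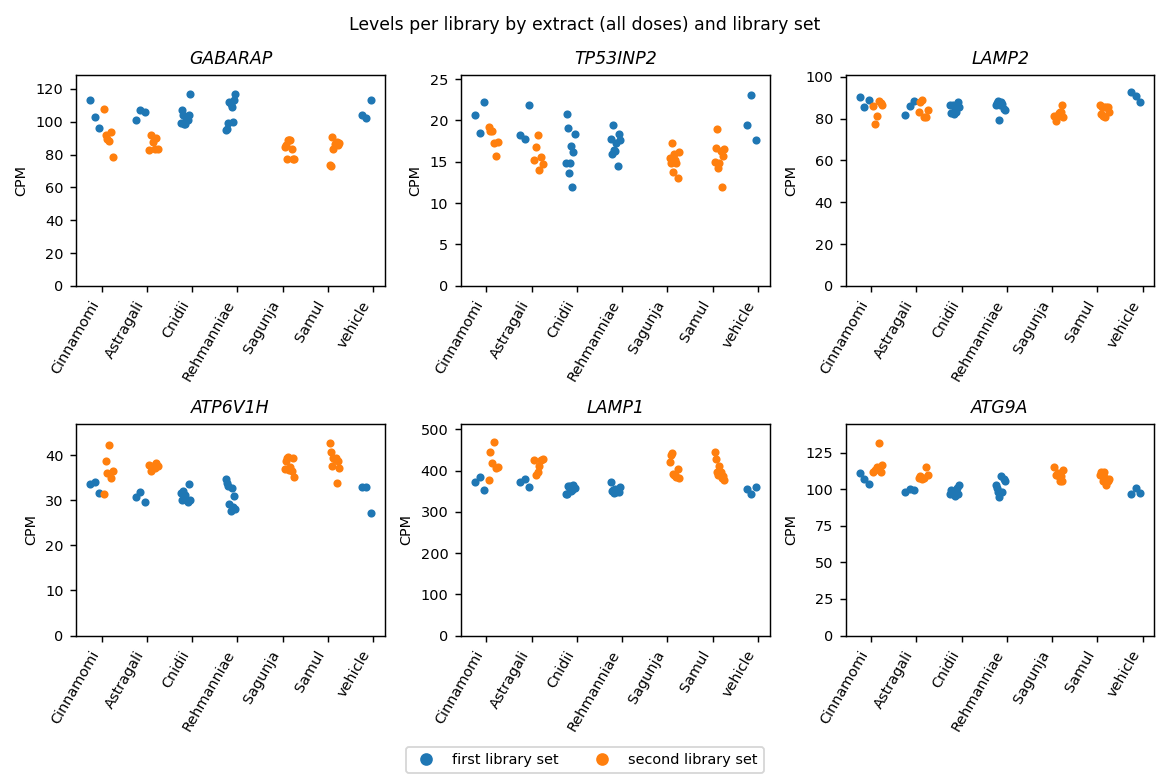
CPM of 6 genes in every tested library, by extract with all doses together and coloured by library set. GABARAP is lower, and ATP6V1H and LAMP1 are higher, in 11 of the 12 second-set libraries of Cinnamomi Cortex and Astragali Radix than in the 6 of the first set, while the vehicle, Cnidii Rhizoma and Rehmanniae Radix Preparata have first-set libraries alone. The exception for each is Cinnamomi Cortex 500 µg/mL replicate 2, which fell among the first set on the first principal component.

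Paeoniae Radix, with 1 library per dose, allows a description and no test. At 20, 100 and 500 µg/mL its libraries had 36.4, 34.9 and 35.3 CPM of GLA, above the vehicle range of 28.4 to 32.7 CPM, and 13.4, 15.5 and 15.6 CPM of TP53INP2, below the vehicle range of 17.6 to 23.1 CPM. All 3 doses lay above every vehicle library for 6 members and below for 5, against 13.9% and 12.1% of all genes. NEU1, at 56.7, 58.9 and 56.9 CPM, and CTSD, at 603, 687 and 712 CPM, had no such separation.

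A wider list of 188 further autophagy and lysosome genes, 178 of them tested, gave the surroundings of these members. With Cinnamomi Cortex at 500 µg/mL against the vehicle, 15 were higher and 10 lower, and their median change was 0.04. These shares, 8.43% and 5.62%, were near the 6.09% and 6.62% of all genes. Of the genes called, only those with a mean log2 CPM of at least 1 are ranked below. The highest were ATG4D (0.36, adjusted p = 0.01), a protease that trims ATG8 proteins, SESN2 (0.35, adjusted p = 0.0015), a stress-induced inhibitor of mTORC1, and NPC1 (0.31, adjusted p = 0.00024), which exports cholesterol from the lysosome. The lowest were the cysteine proteases CTSS (-0.57, adjusted p = 0.001) and CTSO (-0.42, adjusted p = 0.016) and SESN3 (-0.47, adjusted p = 0.027), a relative of SESN2. By group, members included, 7 of 41 glycosidase, sulfatase and lipid hydrolase genes were higher (17.1%) and 0 lower, and 4 of 23 genes of the lysosomal membrane were higher (17.4%) and 1 lower (4.35%). Of 15 cathepsin and protease genes, 4 were higher and 4 lower (26.7% each), and of 20 V-ATPase genes 1 was higher and 1 lower (5% each). These groups are small and hold the members already described, so they are given as counts. Between 500 and 20 µg/mL, 10 of the 178 were higher (5.62%) and 8 lower (4.49%), near the 4.51% and 5.58% of all genes. The largest changes were those of AKT1S1 (0.33), NPC1 (0.32) and ATP6V1G1 (0.31) among the higher and of ATG16L2 (-0.63), CTSS (-0.59) and CTSO (-0.48) among the lower. For Cinnamomi Cortex over Astragali Radix at 500 µg/mL, 17 of the 178 were higher and 8 lower, against 4.9% and 5.8% of all genes. In the interaction of dose with these extracts 2 were higher and 1 lower, against 1.11% and 1.44%.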

How the data were processed

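The values the authors deposited are expected counts per gene, read estimates of the kind RSEM gives, and 8.8% of them are not whole. The submitters' processing notes name RSEM 1.3.3, STAR 2.7.3a, FastQC 0.11.9, Trim Galore 0.6.5 and the hg38/GRCh38 build, and the labels' protocols name a directional MGI library kit and paired reads of 100 bases. The strand setting of the counting is not given in the sources used here, so reads of near-identical or antisense genes may be shared. Of the 273 columns of the table, 213 match none of these samples and were not used.

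Counts were rounded to whole numbers and fitted over 57 libraries in 19 groups of 3 with edgeR 4.0.16 (R 4.3.3) by the robust quasi-likelihood test, with TMM factors (0.938 to 1.043) and filterByExpr at a minimum count of 10. Benjamini-Hochberg adjustment ran over 16356 genes in each of 30 comparisons. 18 comparisons share the 3 vehicle libraries, and those of Cinnamomi Cortex at 500 µg/mL share its 3 libraries. CPM are rounded counts scaled to the TMM-corrected total of tested genes, and CPM per kb divide by the GENCODE release 29 length of the longest principal transcript. Coordinates are GRCh38. Intervals are 95% intervals of the fit. Replicates correlated at 0.9869 to 0.9937 over 57 pairs and differed by more than counting noise, so none was counted as a duplicate. The fit was tested on simulated data.

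All 35 members may be named. Values are given library by library for members called between 500 and 20 µg/mL or in at least 4 comparisons with the vehicle, and for others that a result needed. From the wider list, up to 3 called genes in each direction are named, those with the largest changes at a mean log2 CPM of at least 1. The members and lists were chosen with earlier results of these data known. Alternatives were RLE factors, no low-count filter, DESeq2 1.42.0, replicate blocks, a term for the library set (a grouping made from earlier results of these data, which the labels do not state), the same with 1 library moved, and leaving out each library in turn.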

Additional observations from a re-analysis of the deposited data

Results flagged for a closer look

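The step from 20 to 500 µg/mL differed between Cinnamomi Cortex and Astragali Radix for 4 members by the interaction term of edgeR's quasi-likelihood test. The difference, Cinnamomi Cortex minus Astragali Radix on the log2 scale, was 0.56 for NEU1 (adjusted p = 1.1e-07), 0.49 for SQSTM1 (adjusted p = 0.00017), 0.35 for MAP1LC3B (adjusted p = 0.0021) and -0.26 for CTSB (adjusted p = 0.0052). These tests share the Cinnamomi Cortex libraries at 500 µg/mL with the other comparisons of that dose.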

How the results depend on the processing

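No called member changed sign under any alternative run. With no low-count filter, the members called were 8 for Cinnamomi Cortex at 500 µg/mL against the vehicle (13 with the filter), 1 for its 100 µg/mL (2) and 2 for its 20 µg/mL dose (0), 3, 2 and 1 for Astragali Radix at 500, 100 and 20 µg/mL (1, 0 and 0), 1 for Rehmanniae Radix Preparata at 500 µg/mL (0) and 5 for Samul-tang at 100 µg/mL (8), and between 500 and 20 µg/mL 1 for Cnidii Rhizoma and 1 for Samul-tang (0 each). That setting also ended the interaction call of CTSB (-0.25, adjusted p = 0.11). RLE factors gave 1 for Cinnamomi Cortex at 20 µg/mL, and DESeq2 gave 1 there, 5 for Samul-tang at 20 µg/mL (2) and 1 between the doses of Samul-tang.

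A term for the library set left 0 of 2 calls for Cinnamomi Cortex at 100 µg/mL and 0 of 1 for Astragali Radix at 500 µg/mL. For Sagunja-tang it left 1 of 6, 0 of 5 and 0 of 7 at 500, 100 and 20 µg/mL, and for Samul-tang 0 of 7, 0 of 8 and 0 of 2. It gave 1 between the doses of Cnidii Rhizoma (0). With 1 library moved to the first set the values were the same, except 0 for Sagunja-tang at 500 µg/mL. The cause was not tested.

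Replicate numbers did not pair the samples throughout, since in no comparison were all 3 correlations of same-numbered deviations over 0.1. Replicates 1 and 3 did share deviations in some comparisons. Their correlations were 0.191 and 0.189 between the doses of Cinnamomi Cortex (-0.003 for replicate 2). Between the doses of Astragali Radix they were 0.326 and 0.18 (0.05 for replicate 2). Between these extracts at 500 µg/mL they were 0.215 and 0.216 (-0.046 for replicate 2). The main fit holds no replicate term. The replicate block gave 1 member for Cinnamomi Cortex at 20 µg/mL (0), 2 and 1 for Astragali Radix at 500 and 20 µg/mL (1 and 0), 5 for Samul-tang at 20 µg/mL (2), and between 500 and 20 µg/mL 2 for Cnidii Rhizoma and 1 for Samul-tang (0 each). A replicate block by the prefix of the sample codes gave 11 between the doses of Cinnamomi Cortex (7), 2 for Cnidii Rhizoma and 1 for Samul-tang.

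With 1 library left out at a time, the members called against the vehicle ran from 7 to 11, 0 to 7 and 0 to 5 for Cinnamomi Cortex at 500, 100 and 20 µg/mL, 0 to 3, 0 to 1 and 0 to 3 for Astragali Radix, 2 to 5, 1 to 5 and 2 to 6 for Sagunja-tang and 2 to 7, 3 to 6 and 0 to 2 for Samul-tang. The range was 0 to 1 for Cnidii Rhizoma at 500 µg/mL. It was 7 to 8 between the doses of Cinnamomi Cortex, 7 to 10 for Cinnamomi Cortex over Astragali Radix and 3 to 5 for their interaction, and 0 to 0 in the comparisons not named here. With 3 libraries a group, the least expressed members (CTSL, WIPI1) had SEs of 0.12 and 0.11 on the log2 scale, which limits what can be called there.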
